A study of Mus musculus with 28 samples.

Results

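Cell division in tail tendon was followed through 40 mouse genes, chosen by name for their known roles in the cell cycle, and each matched 1 of the 25719 gene identifiers counted. Of these, 9 act in G1 (Ccnd1, Ccnd2, Cdk4, Ccne1, Ccne2, Cdkn1a, Cdkn1c, Cdkn2c and E2f1) and 10 in DNA replication (Mcm2, Mcm3, Mcm4, Mcm5, Mcm6, Mcm7, Pcna, Rrm1, Rrm2 and Tyms). The other 21 act in mitosis and its preparation (Mki67, Top2a, Cdk1, Ccnb1, Ccnb2, Ccna2, Aurka, Aurkb, Bub1, Bub1b, Plk1, Kif11, Kif20a, Kif23, Cenpe, Cenpf, Birc5, Tpx2, Nusap1, Prc1 and Foxm1). The question was whether these genes differed between transgenic and control tendon at an early and an established stage of disease, and how they changed with stage in control tendon.

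Bulk RNA-sequencing was performed on homogenized tail tendon fascicles from 28 mice on the C57BL/6 background, with 1 library per mouse. Fosl-2(Tg) mice (Tg) carry a randomly inserted copy of murine Fosl2, a subunit of the AP-1 transcription factor, driven by the MHC class I promoter H2Kb and followed by a self-cleaving peptide and eGFP, and they serve as a model of systemic sclerosis. The controls were nontransgenic mice (WT) of the same breeding. Early mice were 6 to 8 weeks old (7 WT and 8 Tg), and established mice were older than 14 weeks (6 WT and 7 Tg). Females made up 5 of the 6 established WT and 6 of the 7 established Tg mice but 0 of the early mice, so that age and sex cannot be told apart between the stages. Because H2Kb is active in many cell types, the transgene is not restricted to tendon cells.

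Cells enter division through D-type cyclins, which with Cdk4 release E2F factors from the retinoblastoma protein, and E2F factors then switch on genes of DNA replication. The MCM proteins form the ring-shaped helicase that is loaded on DNA before it is copied, while the genes of mitosis are switched on later, under complexes that hold B-MYB and FOXM1. Most cells of grown tendon rest outside the cycle, so transcripts that mark dividing cells are scarce in this tissue.

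The start regions of the genes carry short words known from this programme, shown here for members on which the results below turn. RefSeq promoters of 300 bases, 250 before the transcription start and 50 after it, were held for 30 of the 40 members. Aurkb, Ccna2, Ccnd1, Ccnd2, Ccne2, Cdkn1c, Foxm1, Kif20a, Mcm4 and Tpx2 had no entry. Any of 4 words of the E2F site, TTTCCCGC, TTTGGCGC, TTTCGCGC and TTTGCCGC, searched on both strands, occurred in 4 of the 9 DNA replication members held (Mcm3, Mcm5, Mcm6 and Mcm7), in 1 of the 16 mitosis members (Cdk1) and in 0 of the 5 G1 members, beside 2.61% of the 27025 genes in the table. The 3 stretches below come from members of the helicase, in lower case with E2F words in capitals, where overlapping words run together and each stretch ends before the start site. They lie at chr8:75835954-75836025 (plus strand, Mcm5), chr1:128287452-128287582 (minus strand, Mcm6) and chr5:138170273-138170340 (minus strand, Mcm7) of GRCm39, where each was placed by exact match, and are written 5′ to 3′ along the gene.
Mcm5: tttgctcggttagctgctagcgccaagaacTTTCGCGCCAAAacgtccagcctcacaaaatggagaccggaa
Mcm6: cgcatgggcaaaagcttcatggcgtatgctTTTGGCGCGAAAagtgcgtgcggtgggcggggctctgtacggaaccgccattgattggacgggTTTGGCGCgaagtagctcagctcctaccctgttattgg
Mcm7: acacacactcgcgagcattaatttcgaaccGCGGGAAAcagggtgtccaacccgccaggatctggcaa

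Mcm6 held 3 such words before its start, Mcm5 2, and Mcm7 1 before and 1 after the start shown, with none at its other annotated start, while the 2 words of Mcm3 lay after its start. The word TTTGAA, the core of the cell cycle genes homology region through which mitosis genes are held silent in resting cells, had the opposite spread. It occurred on either strand in 11 of the 16 mitosis members, in 1 of the 9 DNA replication members (Mcm2) and in 0 of the 5 G1 members, beside 20.2% of all genes in the table. Ccnb2, Cdk1, Mki67 and Top2a held it 2 times each. In Aurka, Bub1b, Cenpf, Kif23 and Plk1 it lay only after the start, as did 1 of the 2 words of Ccnb2. The stretch of Mki67 (chr7:135318171-135318254, minus strand) and that of Top2a (chr11:98915016-98915224, minus strand), both GRCm39 and 5′ to 3′, are shown because single mice differed widely in these genes, with TTTGAA or its reverse complement in capitals.
Mki67: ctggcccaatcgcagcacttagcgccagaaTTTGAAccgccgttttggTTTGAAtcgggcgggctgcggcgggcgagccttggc
Top2a: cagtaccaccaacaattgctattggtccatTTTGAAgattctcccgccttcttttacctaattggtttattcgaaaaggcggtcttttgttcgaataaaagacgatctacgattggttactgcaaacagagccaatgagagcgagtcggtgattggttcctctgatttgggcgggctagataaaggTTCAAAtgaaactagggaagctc

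A word in these windows is a description of the sequence, and binding was not measured.

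Library totals ran from 9645598 to 66894396 counted reads. Fosl2 counts, in which transgene and endogenous gene are not separated, ran from 59.5 to 137 CPM (counts scaled to library size, here with TMM factors) in early WT and from 63.6 to 156 in early Tg mice, and from 78.3 to 169 in established WT and from 118 to 161 in established Tg mice. Fosl2 was called in neither genotype comparison (edgeR FDR 0.918 early and 0.141 established). Summed over 10 markers of tendon fibroblasts (Col1a1, Scx, Tnmd and others), levels were 192730 to 609520 CPM in early mice, 102140 to 191660 in established WT and 7106 to 81308 in established Tg mice, and Col1a1, Col1a2, Tnmd and Scx were called lower in the last (edgeR). The 4 early libraries with the lowest library numbers in the labels, those of WT replicates 1 to 3 and Tg replicate 1, stood apart. Their sums over 10 B and plasma cell markers were 15.3 to 21.2 CPM, beside 2.67 to 9.32 CPM in the other early mice. Of these markers Ighm had by far the highest medians, 5.50 CPM in early WT and 3.10 CPM in early Tg mice. Pax5 came next at 0.377 and 0.473 CPM. The sums of these 4 libraries over the mitosis members were also the lowest of the early mice, and the libraries were picked after the levels were seen. The counts of members called that rest on early mice are therefore given with and without these 4 libraries. Estimates without a second value below used all libraries of their comparison.

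Per kilobase of annotated exon, G1 transcripts were the most abundant of the 3 groups, with a middle member at 11.1 CPM, beside 1.77 for DNA replication and 0.314 for mitosis. The median over mice was 40.9 CPM per kilobase for Ccnd1, 16.4 for Ccnd2, 16.1 for Cdk4 and 13.9 for Cdkn1c. Pcna, the sliding clamp of DNA polymerase, led the DNA replication group at 10.7 CPM per kilobase, followed by Mcm7 at 3.55. The most abundant mitosis member was Kif20a, a motor protein of cytokinesis, at 2.25, but its annotated exons share 2748 bases with Cdc23 on the opposite strand, and strand was not stated to be kept in library or counting. Across the 28 mice, highest and lowest levels of a member differed by a median of 3.04-fold in the DNA replication group and 6.45-fold in the mitosis group. The range was 20.6-fold for Top2a, 38.2-fold for Cenpf and 45.1-fold for Ccnb1, beside 1.75-fold for Kif20a. At the bottom of the scale Bub1 was at 0 counts in 1 library, and Cdk1 and Ccnb1 fell to a single count, so that differences in these 3 genes were detectable poorly or not at all at this depth.

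**Figure D1:**
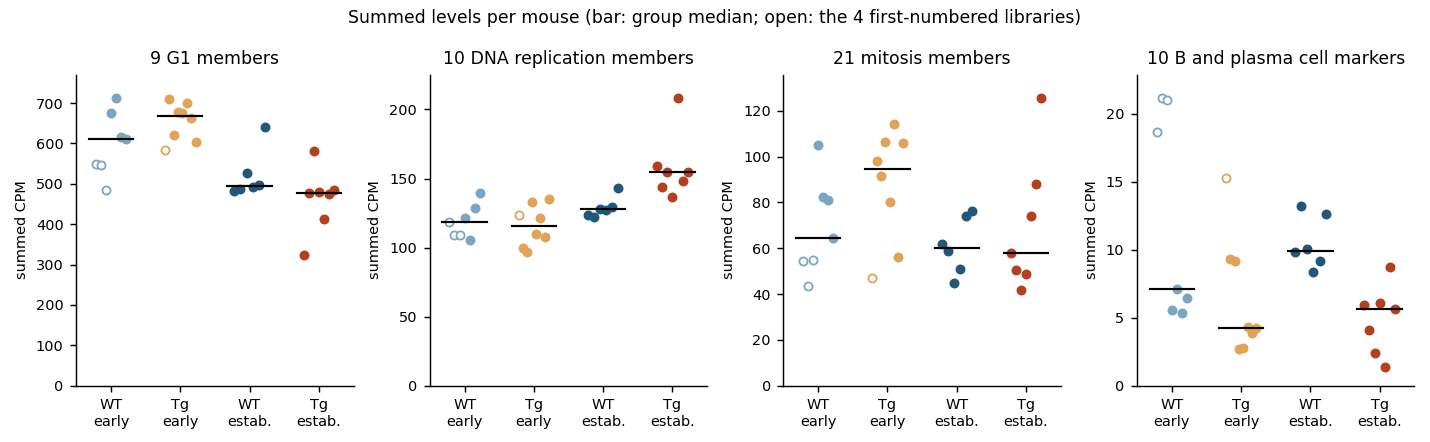
Summed CPM per mouse for the 9 G1, 10 DNA replication and 21 mitosis members and for 10 B and plasma cell markers, by group, with 1 point per mouse and a bar at the group median; open points are the 4 early libraries with the lowest library numbers. DNA replication sums reach 209 CPM in established Tg mice, and mitosis sums spread from 41.7 to 126 CPM there; the open points lie lowest for mitosis members among early mice and highest for B and plasma cell markers.

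Genes were called at an FDR of at most 0.05 in edgeR's quasi-likelihood test, adjusted over all genes tested. In early mice, 0 of the 39 members tested differed between Tg and WT, beside 0.0396% of 15138 genes; 2 members had an unadjusted p under 0.05, and DESeq2 also called 0. In established mice, 2 of 37 members (Mcm6 and Mcm7) were higher in Tg tendon, beside 6.51% of 15862 genes called in either direction. From early to established WT mice, 1 of 38 members (Ccnd2) was lower, beside 4.74% of 15645 genes. The genotype difference itself changed between stages for 2 of 40 members (Mcm6 and Mcm7 again), beside 7.43% of 16082 genes. The share of members called lay below the share of all genes in each comparison. Bub1 had too few counts to be tested in the first 3 comparisons, Ccne1 in the established and WT comparisons and Ccnb1 in the established one.

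**Figure D2:**
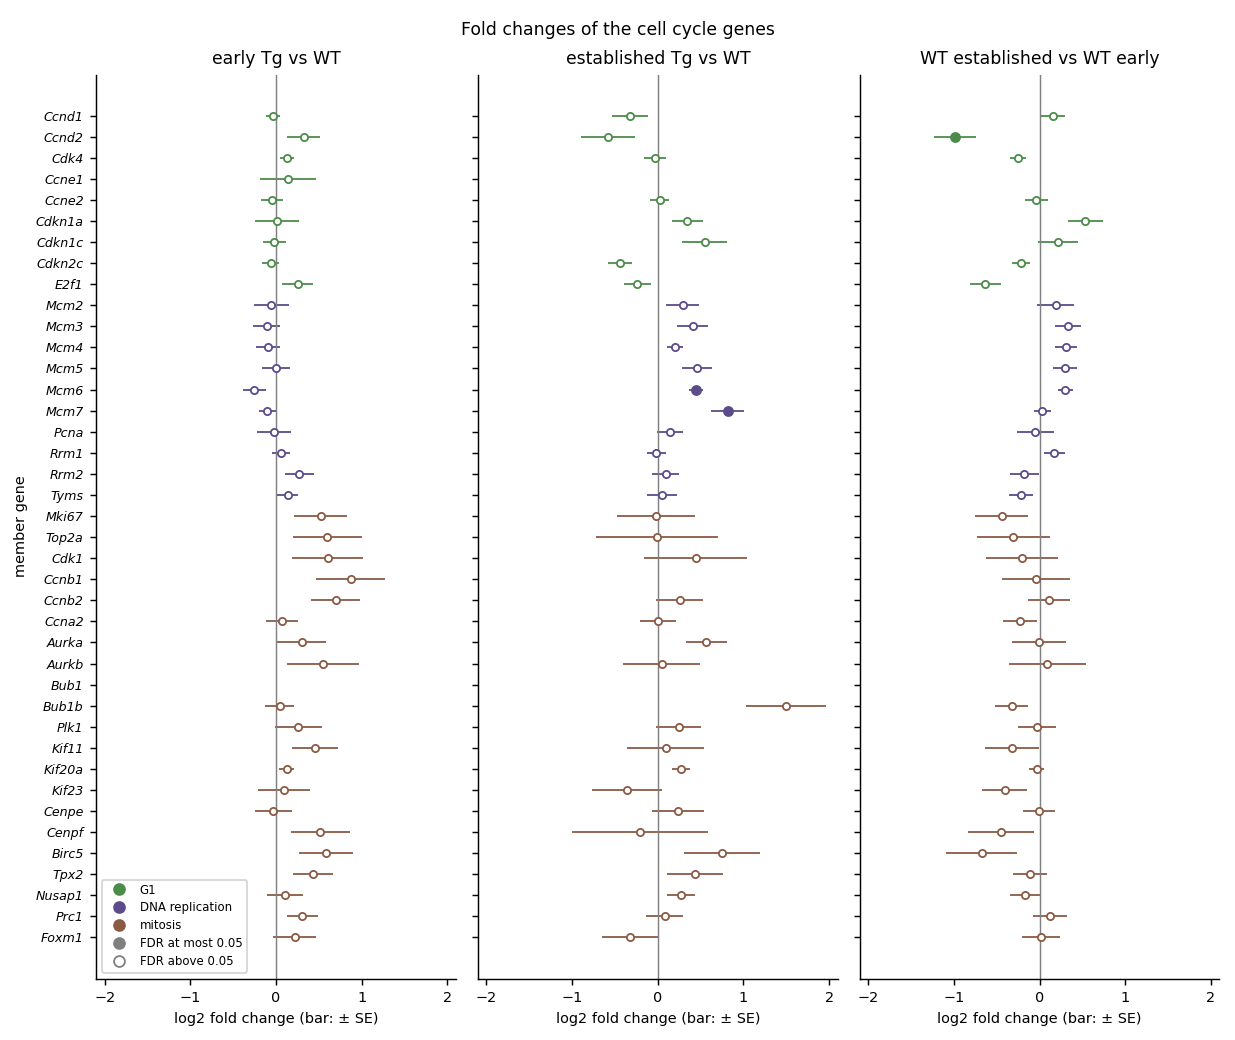
Log2 fold change with its SE for each member in the 3 two-group comparisons, with filled points at an FDR of at most 0.05 and colours for the 3 role groups; a member without a point was not tested. Filled points are Mcm6 and Mcm7 in established Tg against WT mice and Ccnd2 in established against early WT mice, and 19 of the 20 mitosis members tested lie right of 0 in the early comparison, with no filled point among them.

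Mcm6, a subunit of the replicative helicase (chr1:128259311-128287516, GRCm39), was higher in established Tg than in established WT tendon. Its level was 14.4 to 16.8 CPM in established WT mice (median 15.6) and 17.6 to 24.7 CPM in established Tg mice (median 20.9). No Tg mouse overlapped the WT range. The log2 fold change was 0.44 (SE 0.09) with an FDR of 0.0152. In early mice the medians were in the opposite order, at 12.7 CPM in WT (10.6 to 14.4) and 9.93 CPM in Tg mice (7.46 to 13.5), with overlapping groups, a log2 fold change of -0.25 (SE 0.13) and an FDR of 0.834. The change of the genotype difference from early to established mice was 0.69 on the log2 scale (SE 0.16, FDR 0.0116). In bulk tissue, more cells that transcribe a gene and more transcript per cell cannot be told apart, and this holds for each difference given here.

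Mcm7, another subunit of the same ring (chr5:138162844-138170684, GRCm39), had the larger fold change of the 2 members called in established mice. Levels ran from 16.2 to 22.02 CPM in established WT mice (median 20.0) and from 22.6 to 58.5 CPM in established Tg mice (median 29.98). Again the groups did not overlap, and Tg replicates 5 (58.5 CPM) and 1 (39.8 CPM) stood above the other Tg mice, whose highest value was 30.7 CPM. The log2 fold change was 0.81 (SE 0.20, FDR 0.0310). Early WT mice had 16.3 to 22.1 CPM (median 19.1) and early Tg mice 14.3 to 21.2 CPM (median 17.9), which overlapped (log2 fold change -0.10, FDR 0.910). The genotype difference grew by 0.91 on the log2 scale between stages (SE 0.21, FDR 0.0130). Mcm6 and Mcm7 were the 2 members of 40 whose established groups did not overlap, beside 3.83% of all genes tested.

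The 2 calls differed in how far they rested on single mice. Mcm6 kept its call in 21 of 22 alternative fits of the established comparison and Mcm7 in 15 of 22. Mcm7 missed the threshold when Tg replicate 1 or any of WT replicates 1, 2, 4, 5 and 6 was left out, with FDRs of 0.0568 to 0.0676, and its log2 fold change was 0.62 without Tg replicate 5. With the mean level of erythroid markers as a covariate, Mcm6 had a log2 fold change of 0.41 (FDR 0.194) and Mcm7 of 0.54 (FDR 0.397), and 0 of all genes were called (edgeR), with 3 members at an unadjusted p under 0.05. Erythroid marker sums were 10.6 to 129 CPM in established Tg and 9.36 to 21.2 CPM in established WT mice, where 5 markers were tested, all with positive estimates (median 2.25), 3 at an unadjusted p under 0.05 and 0 called. For the change of the genotype difference between stages, 4 of 6 erythroid markers were called, all globin genes (median 4.23), and with that covariate the FDR was 0.187 for Mcm6 and 0.288 for Mcm7. The part of erythroid transcripts in the result was not tested beyond these fits. Mcm7 exons also share 344 bases with Cops6 and 348 bases with Ap4m1, both on the opposite strand, and neither neighbour was called (Cops6 log2 fold change -0.19, FDR 0.363, and Ap4m1 0.22, FDR 0.0871). Without the 4 early libraries that stood apart, the genotype difference changed between stages by 0.73 for Mcm6 (FDR 0.0421) and by 0.88 for Mcm7 (FDR 0.0758), so that 1 member was called, beside 0.911% of all genes.

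The remaining helicase subunits, which form the same ring, lay higher in the median of established Tg mice without passing the test. The log2 fold change was 0.46 for Mcm5 (FDR 0.117), 0.41 for Mcm3 (FDR 0.165), 0.20 for Mcm4 (FDR 0.186) and 0.29 for Mcm2 (FDR 0.355). For Mcm5, WT mice had 3.25 to 4.67 CPM (median 4.16) and Tg mice 4.09 to 7.90 CPM (median 4.83). For Mcm3, WT mice had 6.93 to 10.3 CPM (median 10.01) and Tg mice 8.68 to 16.9 CPM (median 10.7). All 6 subunits thus had a positive estimate in established mice. In early mice the estimates lay between -0.25 (Mcm6) and 0.00 (Mcm5), and without the 4 libraries that stood apart they were positive for Mcm2 (0.06), Mcm3 (0.09), Mcm4 (0.02) and Mcm5 (0.05) and negative for Mcm6 (-0.28) and Mcm7 (-0.05). Of the subunits with a promoter entry, Mcm3, Mcm5, Mcm6 and Mcm7 held an E2F word, in Mcm3 only after its start. Mcm2 held none, and Mcm4 had no entry. A link between these words and the fold changes was not tested.

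The enzymes that feed and guide replication showed less. Rrm1 and Rrm2, the subunits of ribonucleotide reductase, had log2 fold changes of -0.02 and 0.09 in established mice, Tyms, which makes thymidylate, 0.05, and Pcna 0.14, with FDRs of 0.581 to 0.939. Established WT replicate 6 was the highest of its group for Pcna at 37.1 CPM and for Rrm1 at 32.3 CPM, beside group medians of 24.6 and 21.3 CPM. Counted mouse by mouse, between 2 and 7 of the 10 DNA replication members lay above the highest WT mouse in each established Tg mouse, and at most 1 lay below the lowest. In early Tg mice, 0 to 4 lay above and 0 to 3 below. The same count was not made over all genes, so these counts do not set the members apart from other genes. The median log2 fold change of the 10 members was 0.25 in established mice, with 9 positive, and -0.04 in early mice, with 3 positive, beside 0.01 and -0.01 over all genes tested.

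**Figure D3:**
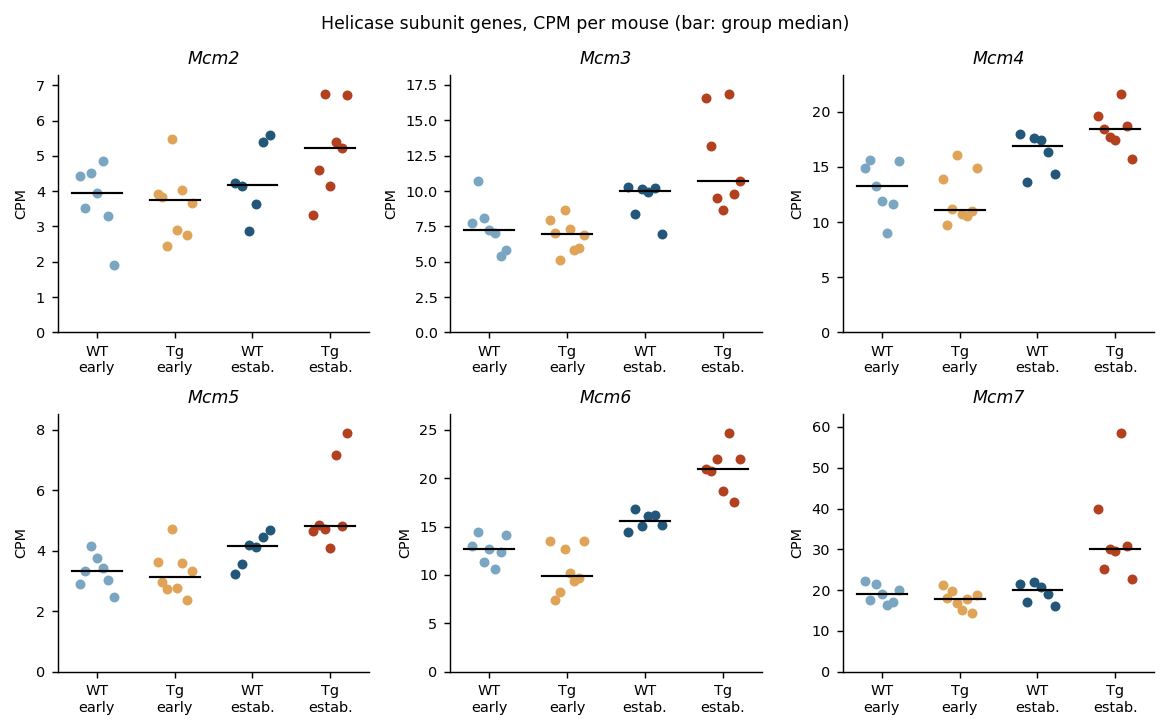
CPM of the 6 helicase subunit genes in each mouse by group, with a bar at the group median and axes from 0. For Mcm6 all 7 established Tg mice lie above the highest established WT mouse (16.8 CPM), and for Mcm7 above 22.02 CPM with 1 Tg mouse at 58.5 CPM; for the other 4 genes the groups overlap.

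In WT tendon, the estimates of the helicase subunits from early to established mice were positive, from 0.03 to 0.33. Mcm6 had a log2 fold change of 0.30 (FDR 0.0505), Mcm3 of 0.33 (FDR 0.230), Mcm4 of 0.31 (FDR 0.169), Mcm5 of 0.30 (FDR 0.229), Mcm2 of 0.19 (FDR 0.638) and Mcm7 of 0.03 (FDR 0.879). None of these passed. Without the 4 early libraries that stood apart, in a fit that called 17.6% of all genes, Mcm3 (0.52, FDR 0.0332) and Mcm6 (0.30, FDR 0.0477) were called higher in established WT mice. Established WT mice were older and nearly all female, and these factors cannot be told apart.

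Among mitosis genes, 0 of 19 tested were called in established mice (edgeR, with 3 at an unadjusted p under 0.05 and 1, Bub1b, called by DESeq2), and single Tg mice spread to both sides of the WT range for many of them. Mki67, the standard marker of cycling cells, had 5.49 to 16.1 CPM in established WT mice (median 11.5) and 4.42 to 29.6 CPM in Tg mice (median 6.47), with a log2 fold change of -0.02 (FDR 0.984). Tg replicates 7 (29.6 CPM) and 6 (18.7 CPM) lay above every WT mouse, while the other 5 Tg mice had at most 6.56 CPM. Top2a, the topoisomerase that untangles replicated chromosomes, followed the same mice, with 10.9 CPM in Tg replicate 7, 6.43 CPM in replicate 6 and 0.531 to 2.07 CPM in the others, beside 1.44 to 6.18 CPM in WT mice (log2 fold change -0.01, FDR 0.997). Cenpf, a kinetochore protein, reached 6.39 CPM in replicate 7 and 4.36 CPM in replicate 6 and lay at 0.170 to 0.706 CPM in the other 5 Tg mice, below every WT mouse (1.09 to 3.59 CPM). Its log2 fold change was -0.21 (FDR 0.887), and its counts in established Tg libraries went down to 3. These genes thus spread over a wider range in Tg than in WT mice, with both ends outside the WT values.

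The same pattern held across the group. Tg replicate 7 had the highest value among established Tg mice for 18 of the 21 mitosis members and lay above the highest WT mouse for 20 of them. Tg replicate 6 lay above the highest WT mouse for 15 members, and neither mouse lay below the lowest WT mouse for any. Each of the other 5 Tg mice lay below the lowest WT mouse for 6 to 9 members and above the highest for 0 to 6. No share over all genes was computed per mouse, so how these counts compare with other genes is not known. Summed over the 21 members, Tg replicate 7 had 126 CPM, replicate 6 had 88.2 CPM and replicate 5 had 74.0 CPM, the others 41.7 to 57.9 CPM, and WT mice 44.9 to 76.4 CPM. Without replicate 7 the median log2 fold change of the 19 members tested was -0.11, with 9 positive, in place of 0.23, with 14 positive.

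Other levels moved with these mice, and their part was not tested. Replicates 6 and 7 had the lowest sums over 18 p53 targets among established Tg mice (485 and 441 CPM, beside 545 to 1229 CPM in the others). They also had the highest levels of Ccnd2 (122 and 109 CPM, beside 23.4 to 95.1 CPM). Sums of macrophage markers were highest in these mice too, at 1335 and 1544 CPM, beside 897 to 1304 CPM in the other Tg and 716 to 1230 CPM in WT mice, and 1 of the 10 markers was called higher in Tg mice. Tendon fibroblast sums of 67970 and 44377 CPM were above those of 4 of the other 5 Tg mice and below that of replicate 4 (81308 CPM). Markers of granulocyte progenitors, which divide in bone marrow, summed to 6.23 CPM in replicate 6 and 0.945 CPM in replicate 7, beside 0.930 to 1.82 CPM in the other Tg and 0.528 to 1.26 CPM in WT mice, with Elane at 0 in 26 of the 28 libraries and Ctsg at 0 in 27. Replicate 6 also had the highest Schwann cell sum among established Tg mice (707 CPM, beside 262 to 356 CPM in the others and 300 to 448 CPM in WT mice) and the lowest T cell sum (5.36 CPM, beside 11.1 to 15.9 CPM and 6.03 to 8.66 CPM). Endothelial sums were 31.8 CPM in replicate 6 and 78.3 CPM in replicate 7, the highest of the Tg mice, beside 28.6 to 68.4 CPM in the others and 24.5 to 101 CPM in WT mice.

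Bub1b and Kif20a did not follow the same mice. Bub1b, the checkpoint kinase BUBR1, was highest in Tg replicates 5 (22.3 CPM) and 1 (9.87 CPM) and lay at 2.93 to 4.64 CPM in the other 5, beside 1.71 to 3.39 CPM in WT mice. Replicates 5 and 1 were also the highest for Mcm7. The log2 fold change of Bub1b was 1.50 (SE 0.47, FDR 0.0687) and did not pass, falling to 0.90 (FDR 0.0825) without replicate 5. It had the smallest p after Mcm7 for the change of the genotype difference between stages (1.44, SE 0.48, FDR 0.0603), which did not pass either. Replicate 5 was the male of its group and its shallowest library (9664327 counted reads), and it had the highest p53 target sum of all mice (1229 CPM, beside 400 to 612 CPM). Its tendon fibroblast sum was the lowest of all mice (7106 CPM). Its skeletal muscle sum (5492.5 CPM, group median 374) and adipocyte sum (105 CPM, group median 46.9) were the highest among established Tg mice. The part of these differences was not tested. Kif20a had 10.1 to 11.3 CPM in established WT and 10.5 to 15.6 CPM in Tg mice (log2 fold change 0.27, FDR 0.109), with replicates 1 and 2 on top, and Cdc23, which overlaps it, had a log2 fold change of 0.12 (FDR 0.205).

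**Figure D4:**
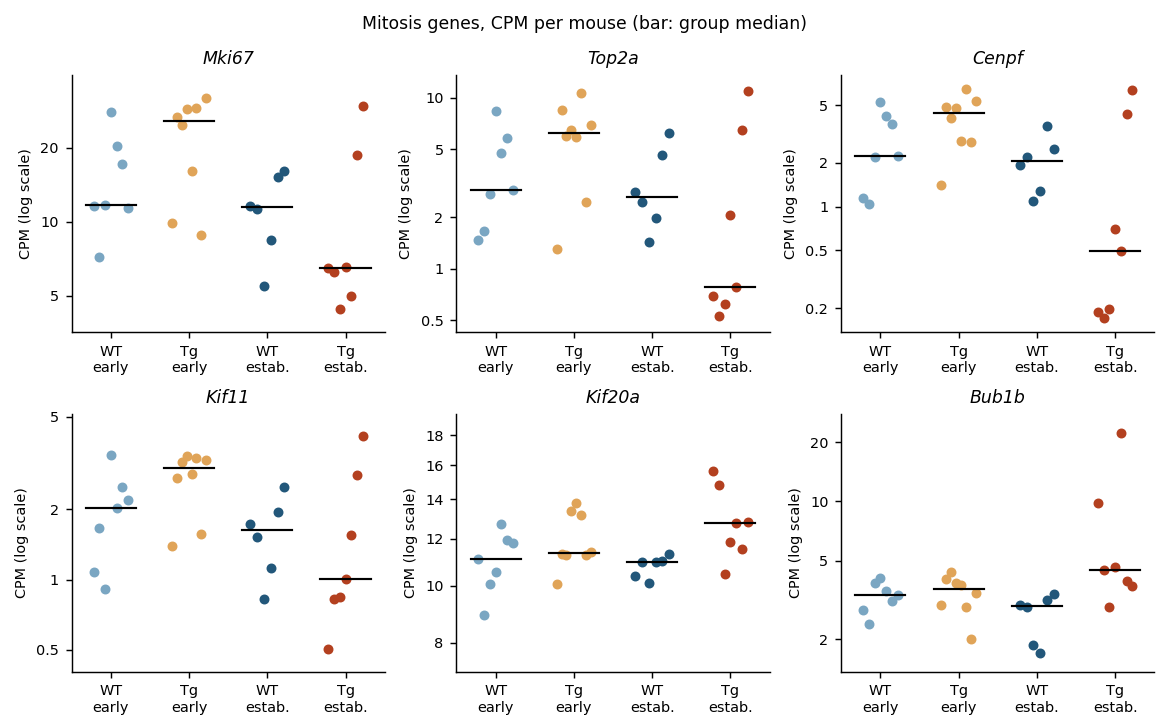
CPM on a log scale of 6 mitosis genes in each mouse by group, with a bar at the group median. Established Tg mice split for Mki67, Top2a, Cenpf and Kif11, where replicates 6 and 7 lie highest, while replicate 5 leads for Bub1b at 22.3 CPM and the axis of Kif20a spans less than 2-fold between its lowest and highest mouse.

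The other mitosis members are given by their ranges. Aurka, a kinase of the spindle poles, had a log2 fold change of 0.57 (FDR 0.155) in established mice, and its exons share 984 bases with Fam210b on the opposite strand. Birc5, encoding survivin of the chromosomal passenger complex, stood at 0.75 (FDR 0.290), Tpx2, a spindle assembly factor, at 0.44 (FDR 0.401), and Cdk1, the kinase that drives mitosis, at 0.44 (FDR 0.661). Foxm1, the transcription factor of mitosis genes, and Kif23, a motor of the midbody, had negative estimates of -0.32 (FDR 0.553) and -0.36 (FDR 0.589). For Nusap1, Prc1, Plk1, Cenpe, Kif11, Ccnb2, Ccna2 and Aurkb the estimates lay between 0.00 and 0.27, with FDRs of 0.299 to 0.994. For Ccna2, whose exons share 714 bases with Exosc9, Tg replicate 7 alone stood out at 9.98 CPM, beside 4.11 to 5.96 CPM in the other Tg mice. Bub1, which was not tested, had 0 to 0.945 CPM in Tg and 0.0872 to 0.603 CPM in WT mice, and Ccnb1, also not tested, had 0.0628 to 2.83 CPM and 0.377 to 1.14 CPM.

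In early mice, most estimates of mitosis genes were positive in Tg against WT tendon, within the spread between mice. The 3 members with the smallest p were Ccnb2, Ccnb1 and Mcm6, and none passed. Ccnb2, a B-type cyclin that activates Cdk1, had 0.779 to 1.74 CPM in WT mice (median 0.969) and 0.745 to 2.41 CPM in Tg mice (median 2.1), with a log2 fold change of 0.69 (SE 0.28, FDR 0.767). Ccnb1, its paralog, had 0.208 to 1.15 CPM (median 0.531) and 0.47 to 2.47 CPM (median 0.876), with a log2 fold change of 0.87 (SE 0.40, FDR 0.818). Both pairs of groups overlapped. Mki67 stood at 7.17 to 28.1 CPM in WT (median 11.7) and 8.82 to 31.8 CPM in Tg mice (median 25.7), and Top2a at 1.48 to 8.32 CPM (median 2.90) and 1.30 to 10.7 CPM (median 6.21), with log2 fold changes of 0.52 (FDR 0.846) and 0.60 (FDR 0.859). Estimates were positive for 19 of the 20 mitosis members tested, with a median of 0.37 beside -0.01 over all genes.

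The 4 early libraries that stood apart, which were picked after the levels were seen, lay at the low end of that spread. Their mitosis sums were 43.4 to 55.0 CPM, below all other early mice (56.4 to 114 CPM). Macrophage marker sums in early mice were 919 to 1483 CPM in WT and 828 to 1213 CPM in Tg mice, with 0 of 10 markers called and 7 lower at an unadjusted p under 0.05 (edgeR), and their part was not tested. Skeletal muscle sums were 85.6 to 8917 CPM in WT (median 1134) and 807 to 8904 CPM in Tg mice (median 4615), with a median log2 fold change of 0.43 over the 10 markers and 9 positive. Endothelial sums were 23.1 to 81.0 CPM (median 38.3) and 23.6 to 69.2 CPM (median 54.4), with a median of 0.20 over 9 markers tested and 5 positive. In these 2 lists 0 markers were called, with 0 at an unadjusted p under 0.05 (edgeR), and their part was not tested either. The highest WT mouse for both lists was replicate 4. WT replicate 4 was the highest WT mouse for 15 of the 21 members, with 105 CPM in sum, and Tg replicate 1 was the lowest Tg mouse for 16. When all 4 libraries that stood apart, of which 3 were WT, were left out, the median was 0.22 with 17 of 21 members positive. Mki67 stood at 0.32 (FDR 0.906), Top2a at 0.32 (FDR 0.906) and Ccnb2 at 0.63 (FDR 0.897). These libraries were picked with their low mitosis sums known, and the cause of the shift was not tested. The count of members called was 0 with and without them.

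From early to established WT mice, most mitosis estimates were negative, and their size depended on the same libraries. The median over 20 members tested was -0.14, with 4 positive, and 0 were called (edgeR, with 0 at an unadjusted p under 0.05 and 0 called by DESeq2). Mki67 had a log2 fold change of -0.44 (FDR 0.416), Birc5 of -0.68 (FDR 0.347), Cenpf of -0.45 (FDR 0.519) and Top2a of -0.31 (FDR 0.698). Without the 3 WT libraries that stood apart, all 21 estimates were negative with a median of -0.43, Mki67 stood at -0.79 (FDR 0.0957) and Cenpf at -0.90 (FDR 0.0856), and 0 mitosis members were called, with 7 at an unadjusted p under 0.05. These libraries were picked after the levels were seen and had low mitosis sums, so a larger fall follows from leaving them out. With the single established WT male against the early males, the median was 0.21, with 15 of 21 positive, which rests on 1 mouse.

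Among G1 genes, Ccnd2 changed with stage. Cyclin D2 (Ccnd2, chr6:127102125-127129156, GRCm39) is a partner of Cdk4 that carries growth signals into the cycle. WT mice had 144 to 370 CPM in the early stage (median 224) and 78.0 to 165 CPM in the established stage (median 108), and the groups overlapped. The log2 fold change was -0.99 (SE 0.24, FDR 0.0355). Ccnd2 was at 144, 151 and 158 CPM in the 3 early WT libraries that stood apart, the lowest of their group. Without them it fell by 1.33 on the log2 scale (FDR 0.00394), in a fit that called 17.6% of all genes. As these were the lowest early values, leaving them out makes the fall larger. The call was made in 12 of 24 alternative fits. It was lost without established WT replicate 1, 3, 4 or 5 and without early WT replicate 4, 5, 6 or 7, at FDRs of 0.0519 to 0.0881. It was also lost with the erythroid score as a covariate, with the replicate block and with established females only. The last is the same fit as that without established WT replicate 5, so the 24 are not all distinct. Males alone left 1 established WT mouse. The log2 fold change stayed between -0.84 and -1.33 in all 24.

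Ccnd2 was also low in established Tg mice, at 23.4 to 122 CPM (median 78.9), with a log2 fold change against WT mice of -0.58 (FDR 0.254). Early Tg mice had 166 to 326 CPM (median 297), where Tg replicate 1, of the libraries that stood apart, was the lowest and the next mouse had 265 CPM (log2 fold change 0.32, FDR 0.846). Without the libraries that stood apart, this log2 fold change was 0.097. The change of the genotype difference between stages was -0.91 (SE 0.38, FDR 0.136). Ccnd1, the cyclin D1 gene, had median levels of 201 CPM in early WT, 186 in early Tg, 210 in established WT and 176 CPM in established Tg mice, and its exons share 2315 bases with LTO1 on the opposite strand.

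E2f1, the factor released by cyclin D kinases, came next after Mcm6 in the WT comparison, with 7.37 to 17.0 CPM in early mice (median 10.7) and 5.47 to 8.29 CPM in established mice (median 7.39). Its log2 fold change was -0.63 (SE 0.18, FDR 0.0654), and without the WT libraries that stood apart it was -0.85 and was called (FDR 0.0120), as was Ccne1, a cyclin E gene, at -1.83 (FDR 0.0176). Cdk4 had a log2 fold change of -0.25 (FDR 0.139) and Cdkn1a, the p21 inhibitor that p53 switches on, of 0.54 (FDR 0.150). In that fit the members called were thus Ccnd2, E2f1 and Ccne1 lower and Mcm3 and Mcm6 higher, 5 of 40, a share below the 17.6% of all genes called there. Ccne2, the other cyclin E gene, kept a median of 9.78 to 10.5 CPM in all 4 groups.

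Of the inhibitors, Cdkn2c (p18, which blocks Cdk4) came closest to a call in established Tg mice. WT mice had 14.1 to 18.8 CPM (median 16.7) and Tg mice 7.95 to 16.9 CPM (median 11.7), overlapping through Tg replicates 6 (16.9 CPM) and 7 (14.4 CPM), with a log2 fold change of -0.44 (SE 0.14, FDR 0.0727). Cdkn1c (p57), which holds cells in arrest, had 14.4 to 41.4 CPM in WT and 22.8 to 69.3 CPM in Tg mice (0.55, FDR 0.206), and Cdkn1a 58.4 to 94.5 and 62.9 to 141 CPM (0.34, FDR 0.243). Replicate 5 had the highest Cdkn1a and Cdkn1c and the lowest Ccnd2, Cdkn2c, Cdk4 and E2f1 among established Tg mice. In early mice, the 9 G1 members had log2 fold changes of -0.06 to 0.32.

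**Figure D5:**
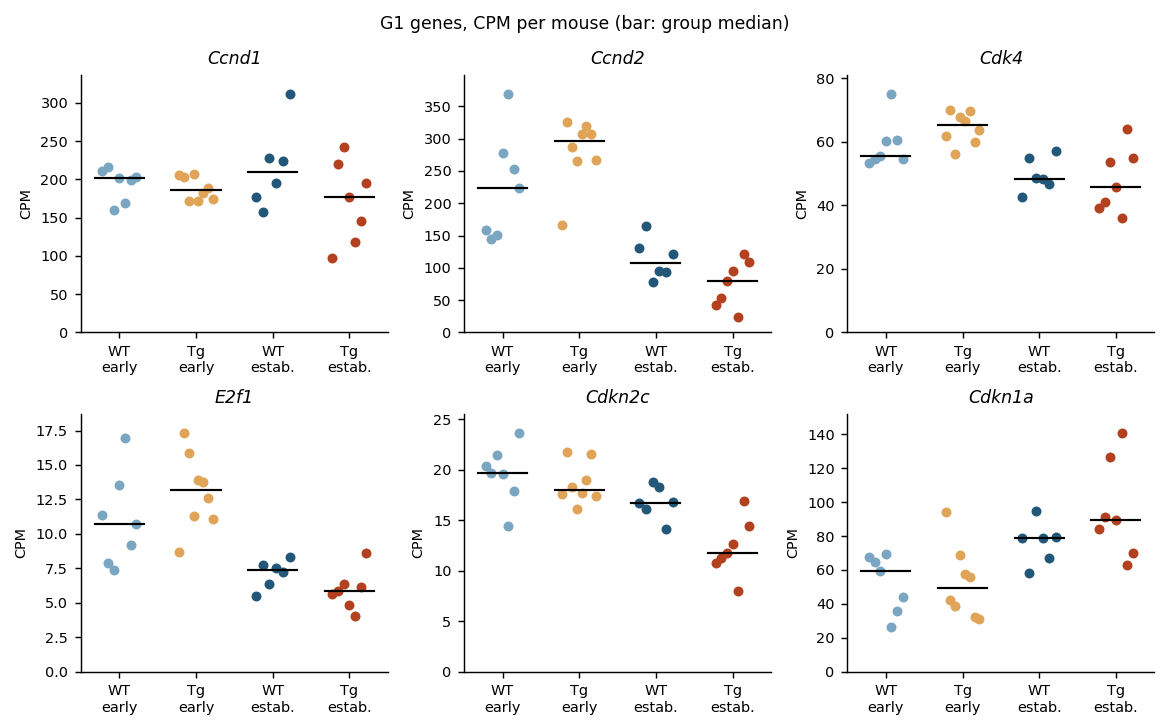
CPM of 6 G1 genes in each mouse by group, with a bar at the group median and axes from 0. Ccnd2 lies at 78.0 to 165 CPM in established and 144 to 370 CPM in early WT mice, and the 4 lowest early Ccnd2 values belong to the 4 libraries with the lowest numbers; Cdkn2c medians are 16.7 and 11.7 CPM in established WT and Tg mice.

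Beyond the 40 members, further genes of the same processes were read from lists that share no gene with them. Their counts are to be read beside the shares of all genes called, which were 0.0396% in early mice, 6.51% in established mice, 4.74% between WT stages and 7.43% for the change of the genotype difference. Without the 4 early libraries that stood apart, the last 2 shares were 17.6% and 0.911%. These lists are given with all libraries only. Of 34 other replication genes tested, 0 were called in early and 0 in established mice (edgeR; 2 and 6 had an unadjusted p under 0.05), while Pole (0.47, FDR 0.0290) and Prim1 (0.59, FDR 0.0435), of DNA polymerase epsilon and primase, were higher in established than in early WT mice. Of 44 other mitosis genes tested, 1 was called in established Tg mice, the condensin gene Ncapg2 (0.41, FDR 0.0207), and 1 with stage in WT mice, the condensin gene Ncapd2, which was lower (-0.91, FDR 0.0361). Ccnd3, the third D-type cyclin, was higher in established Tg mice (0.77, SE 0.14, FDR 0.0136), the 1 gene called of 26 other G1 regulators tested, and its genotype difference changed between stages by 0.72 (FDR 0.0166). Ccnd1 and Ccnd2 had estimates below 0 in that comparison. Of 18 p53 targets, Gadd45a (1.28, FDR 0.0267) and Trp53inp1 (1.74, FDR 0.0466) were higher in established Tg mice, and Perp (1.13, FDR 0.00937) was higher in established WT than in early WT mice. In established Tg mice the sum over these targets had a median of 561 CPM and reached 1229 CPM in replicate 5. Fits without single mice are not given for the genes of these lists. The genotype difference changed between stages for Tk1, a thymidine kinase (0.49, FDR 0.0415), for Ncapg2 (0.45, FDR 0.0254) and Ncapd2 (1.05, FDR 0.0321), for Espl1, the separase gene (-0.74, FDR 0.0449), and for Trp53inp1 (1.61, FDR 0.0467), which makes 1 of 34 replication, 3 of 52 mitosis and 1 of 18 p53 target genes tested. For early mice, 0 genes of these 4 lists were called, with 7 at an unadjusted p under 0.05.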

How the data were processed

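The authors mapped reads with STAR to GRCm39 (GENCODE M26) and counted them per gene with featureCounts. The deposited values are these raw counts, whole numbers that were neither normalized nor filtered, and they were used as deposited. The authors depleted ribosomal RNA, and strand, multimapping and overlap settings are not given in the sources used here. Of 25719 identifiers, 25505 were named from GENCODE M39 on the same assembly. Groups and replicate numbers came from the sample titles.

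Counts were tested with edgeR 4.0.16 in R 4.3.3 (TMM, filterByExpr with minimum count 10 and minimum total 15, glmQLFit and glmQLFTest without covariates, two-sided, Benjamini-Hochberg over all genes tested, called at an FDR of at most 0.05). Each two-group comparison was fitted on its own mice, and the change of the genotype difference with stage on all 28. CPM values were TMM scaled over all 28 libraries. Scripts were tested on simulated data. DESeq2 1.42.0, other scalings and filters, marker covariates, sex subsets, a replicate block and each mouse left out were tried as alternatives, and the fits without 4 early libraries were chosen after seeing the data. Members, lists and tests were chosen with earlier results of these data known. Members were all named; those called were described in full, with the 3 smallest p where fewer than 3 were called, and other lists by counts and up to 3 called genes. Same-numbered early WT and Tg mice had correlated deviations from their group means (r 0.140 to 0.404, median 0.276, over 7 pairs). Of these, 0 of 7 correlated best with their own number, and the blocked early fit called 0 members as well.

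Marker lists of 10 genes each (9 found for erythroid cells and keratinocytes) were summed in CPM. Over all mice the sums ran from 43.3 to 17255 for skeletal muscle, from 3.25 to 15.9 for T cells, from 18.6 to 42.0 for keratinocytes, from 23.1 to 101 for endothelial cells, from 262 to 707 for Schwann cells, from 32.6 to 109 for adipocytes and from 13.5 to 295 for cartilage and bone.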

Additional observations from a re-analysis of the deposited data

Results flagged for a closer look

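Dixon's test at the 95% level was applied to each of the 40 genes in each of the 4 groups, 160 tests in all, of which chance flags about 1 in 20, and 13 values stood apart. In early mice these were Ccnd2 at 166 CPM in Tg replicate 1, Ccne1 at 1.48 CPM in Tg replicate 3, Cdk4 at 75.2 CPM in WT replicate 5, and Aurkb at 1.88 CPM and Bub1 at 1.21 CPM in WT replicate 4. In established WT mice they were Pcna at 37.1 CPM, Rrm1 at 32.3 CPM and Ccna2 at 7.54 CPM in replicate 6 and Rrm2 at 4.23 CPM in replicate 3. In established Tg mice they were Ccna2 at 9.98 CPM, Birc5 at 1.74 CPM and Prc1 at 10.5 CPM in replicate 7 and Bub1b at 22.3 CPM in replicate 5.

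The genotype difference changed between early and established mice for 2 genes in the interaction test, Mcm6 by 0.693 and Mcm7 by 0.908 on the log2 scale.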

How the results depend on the processing

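The early comparison gave 0 members called in each of its 24 alternatives. In the established comparison, 2 members were called in the fit as reported, 4 with DESeq2, with the muscle score as a covariate and with all 28 libraries in 1 fit (Bub1b higher and Cdkn2c lower beside Mcm6 and Mcm7), and 0 with the erythroid score as a covariate; leaving out single mice gave 1 to 3. For WT mice between stages, where 1 was reported, 3 were called with DESeq2, with the muscle score and with all 28 libraries, 2 with a filter at a mean of 1 CPM, 5 without the 4 first-numbered early libraries and 0 with the erythroid score, with the replicate block, in males alone and with established females alone; leaving out single mice gave 0 to 3. For the change of the genotype difference, where 2 were reported, 0 were called with the erythroid score, 7 with the replicate block and 1 without the 4 libraries; leaving out single mice gave 2 to 4. The cause of these shifts was not tested.

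With the replicate block as a pairing term the established comparison called 3 members, and the 7 of the last comparison were Bub1b, Mcm6 and Mcm7 upward and Ccnd2, Cdkn2c, Cenpf and Top2a downward. For same-numbered established mice r was -0.225 to 0.689 (median 0.308), with 3 of 6 best with their own number. For WT mice of the 2 stages it was -0.687 to 0.722 (median 0.155), with 2 of 6. Whether the numbers mark true pairs is not known. Over all genes the calls ranged from 0 to 25 in early mice, from 0 to 2179 in established mice, from 0 to 2834 between WT stages and from 29 to 2057 for the change of the genotype difference. Mcm6 and Mcm7 in the established comparison and in the change of the genotype difference, and Ccnd2 between WT stages, kept their direction in every alternative run. Low counts limit Bub1, Ccnb1, Cdk1 and Ccne1, and also Cenpf in established Tg mice.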
